A study of Mus musculus with 9 samples.

Results

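The genes of the TEAD transcription factors (Tead1, Tead2, Tead3 and Tead4), of their coactivators YAP and TAZ (Yap1 and Wwtr1) and of the Vestigial-like cofactors Vgll2, Vgll3 and Vgll4 were examined in the open chromatin of the early mouse heart field. A region counted as theirs when its deposited gene symbol was 1 of these 9 genes. By this rule 19 of the 17164 distinct accessible regions in the list belonged to the group, and they were spread over 7 of the 9 genes. Vgll4 had 6 regions, Tead1 had 4, Vgll3 had 3, Tead4 and Vgll2 had 2 each, and Yap1 and Wwtr1 had 1 each. Tead2 and Tead3 had none.

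TEAD proteins bind DNA through the TEA domain, at sites with the core CATTCC, but activate transcription poorly alone. YAP and TAZ lack a DNA-binding domain and act on TEAD-bound sites when the Hippo kinases leave them unphosphorylated and nuclear, whereas VGLL proteins bind the same TEAD surface, and VGLL4 thereby competes with YAP. In the embryonic heart the pathway is known for its control of cardiomyocyte proliferation and organ size, and mouse embryos that lack Tead1 develop a thin ventricular wall.

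Chromatin accessibility was profiled in the study with ATAC-Seq, which uses Tn5 transposase to place sequencing adapters in open DNA, on heart and pharyngeal mesoderm dissected from E8.75 mouse embryos with 6 somites. There were 3 libraries from each of 3 groups: control embryos labelled wt, embryos with the genotype Isl1-/-, which lack the LIM-homeodomain factor Isl1, and embryos with the genotype Isl1Cre+/-/ Brg1fl/fl, in which Cre from the Isl1 locus deletes the floxed gene of the chromatin remodeler Brg1 in cells that express Isl1. The mutant libraries were not analysed here, and the labels do not say how many embryos made up a library, while the methods count 3 embryos per genotype. The control group was represented by a single list of regions common to its 3 libraries, with a position, a transcription start site (TSS), the signed distance to it and a gene symbol for each region, and with no height, read count or value per library. Depth was therefore unknown, no replicate error could be computed, and all values below are descriptions of 1 list without a test. A region missing from the list was not found in all 3 libraries, which does not show that the chromatin there was closed, and a region says nothing of how strongly its gene was expressed.

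Of the cardiac and pharyngeal mesoderm markers used to check the tissue, 5 of 8 had a region: Isl1 had 9, Mef2c 5, Tbx20 4 and Hand2 and Gata4 1 each, while Nkx2-5, Tbx5 and Tbx1 had none. Markers of other cell types also had regions, with 3 of 4 for endothelium (not Pecam1), 1 of 3 for blood (not Gata1 or Hbb-bh1), 2 of 3 for neural tissue (not Sox2) and 2 of 2 for endoderm. Over all protein-coding genes 49.3% had a region, so these small counts do not tell the cell types apart, and in dissected tissue a region cannot be given to a cell type.

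Sequences are printed 5′ to 3′ on the strand named, with the coordinates of mm9 (NCBIM37). The 100 bases before the outermost protein-coding start are shown first for 8 of the genes, with CG dinucleotides in capitals, because the presence of a region at a gene's start varied with the CpG frequency there over all genes. For Vgll4 the start shown is the inner one, which the list uses.
Tead2, chr7:52471023-52471122, plus strand: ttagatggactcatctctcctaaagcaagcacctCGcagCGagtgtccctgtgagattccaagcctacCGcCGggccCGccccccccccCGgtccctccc
Tead3, chr17:28487751-28487850, minus strand: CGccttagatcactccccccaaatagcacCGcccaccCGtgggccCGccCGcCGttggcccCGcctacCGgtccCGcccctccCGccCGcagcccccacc
Tead4, chr6:128250842-128250941, minus strand: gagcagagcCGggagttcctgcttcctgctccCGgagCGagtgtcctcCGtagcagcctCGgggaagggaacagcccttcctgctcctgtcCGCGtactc
Yap1, chr9:8004597-8004696, minus strand: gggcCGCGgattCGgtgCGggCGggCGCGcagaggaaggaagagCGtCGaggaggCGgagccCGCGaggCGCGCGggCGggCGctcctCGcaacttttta
Wwtr1, chr3:57379833-57379932, minus strand: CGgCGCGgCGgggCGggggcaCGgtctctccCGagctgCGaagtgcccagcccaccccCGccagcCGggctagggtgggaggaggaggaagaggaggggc
Vgll2, chr10:51742208-51742307, plus strand: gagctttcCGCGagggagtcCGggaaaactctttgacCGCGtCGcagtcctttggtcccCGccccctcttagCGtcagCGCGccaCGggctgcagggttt
Vgll3, chr16:65815778-65815877, plus strand: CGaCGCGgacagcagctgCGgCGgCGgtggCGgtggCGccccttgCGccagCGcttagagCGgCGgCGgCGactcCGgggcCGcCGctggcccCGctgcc
Vgll4, chr6:114871840-114871939, minus strand: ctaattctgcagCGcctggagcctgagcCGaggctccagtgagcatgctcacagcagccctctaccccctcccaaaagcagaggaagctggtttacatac
In this stretch Yap1 and Vgll3 each had 18 CG, Tead3 and Vgll2 had 11, Wwtr1 had 10, Tead4 had 7, Tead2 had 6 and the inner Vgll4 start had 2. The outermost Vgll4 start, whose stretch is not shown, had 4. The median over protein-coding genes was 4, and 23.6% had 10 or more. Of the genes with no region at the start, Tead3 and Vgll2 lay among the genes shown that had one, and Tead2 lay below all of them but the inner Vgll4 start.

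At the starts of 6 of the 9 genes, namely Tead1, Tead4, Yap1, Wwtr1, Vgll3 and Vgll4, a region lay within 1 kb of the assigned TSS. Over the 21027 protein-coding genes, 49.3% had any assigned region and 40.6% had one within 1 kb. By deposited distance the 6 regions lay at most 311 bp from the assigned TSS (Yap1), and the closest of the other 13 was at 14898 bp (Tead4). Of those 13, 2 in Vgll4 nevertheless held other annotated starts of their gene, coding ones at -47176 bp and noncoding ones at 46621 bp. Over the list, 365 of the 8081 regions beyond 1 kb (4.52%) held an annotated coding start. At least 3 regions were assigned to Tead1, Vgll3 and Vgll4, a number reached by 4.96% of protein-coding genes. At least 4 regions, as Tead1 had, were assigned to 2.53%, and the 6 regions of Vgll4 were matched or exceeded by 0.666% (140 genes). Long genes and genes with wide intergenic surroundings can collect more regions, and Tead1 (227.5 kb) and Vgll4 (109.4 kb) are long while Vgll3 (47.4 kb) lies alone in 1092.7 kb between its coding neighbours; the part of length in these counts was not tested.

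**Figure D1:**
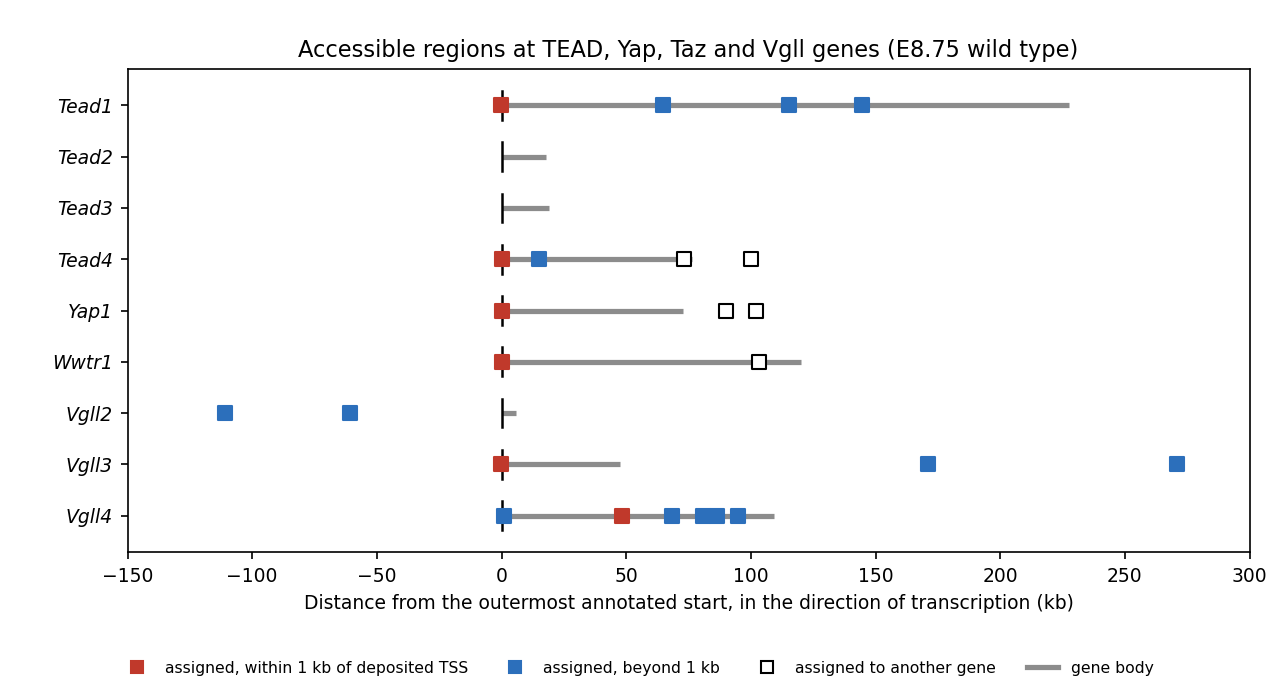
Positions of accessible regions around the 9 genes, with the distance from the outermost annotated start in kb on the x axis (positive in the direction of transcription), 1 row per gene, and the gene body as a grey bar. Red and blue squares mark the 19 assigned regions within and beyond 1 kb of the deposited TSS. Open squares mark regions between the same coding neighbours that were assigned to another gene and fall in the plotted range. Outside that range are a region assigned to Arntl (528007 bp from the Tead1 start) and regions assigned to Chmp2b and 1700010K23Rik (-252875 and 770357 bp from the Vgll3 start). Tead2 and Tead3 carry no square, and Vgll4 carries 6 inside its gene.

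Tead1, the TEAD gene needed for growth of the ventricular wall, is on the plus strand at chr7:119822832-120050319. Its promoter region, chr7:119821826-119823757, was 1932 bp wide, at the 88.2 percentile of widths among regions within 1 kb, with 64.4% GC and 10.2 CpG per 100 bp. It held 5 annotated starts, those of Tead1 and that of the noncoding gene 2310014F06Rik (chr7:119756982-119823572, minus strand). That gene starts inside Tead1 and runs antisense across the Tead1 start, so this single region covers the start of both.

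The other 3 regions of Tead1 lay inside the gene, at chr7:119886887-119887931 in intron 1, and at chr7:119937814-119938761 and chr7:119967091-119967750 in intron 2 of the longest transcript. Their widths were 1045, 948 and 660 bp, and the last was at the 9.49 percentile of distal regions. From the outermost start their midpoints were 64.6, 115.5 and 144.6 kb downstream. The deposited distances of -15489, 35389 and 64522 bp instead point to an internal start at position 119902898, so the first of the 3 is upstream of that start but within the gene. It was 1.85 kb from another internal coding start, at position 119885559. The CpG frequencies of the 3 were 1.15, 0.527 and 1.36 per 100 bp, near or below the median of 1.35 for distal regions.

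Tead4, which specifies the trophectoderm of the blastocyst and is also active in muscle cells, is on the minus strand at chr6:128174306-128250841. Its promoter region, chr6:128249866-128251259, was 1394 bp wide with 63.1% GC and 7.1 CpG per 100 bp, and it held 3 starts of the gene. An intron 1 region of 977 bp lay 14.9 kb downstream, at chr6:128235445-128236421, with 53% GC and 2.05 CpG per 100 bp. A further region of 1014 bp, chr6:128177276-128178289, has its midpoint in a Tead4 UTR near the 3′ end of the gene, 73059 bp from the outermost start, but was assigned to the noncoding gene 9330102E08Rik and is not among the 19.

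Tead2 (chr7:52471123-52489005, plus strand) and Tead3 (chr17:28468616-28487750, minus strand) are the short TEAD genes, at 17.9 and 19.1 kb. No region lay in either gene or anywhere between its flanking coding genes. The nearest region to a coding start of Tead2 was 53 kb away and assigned to Slc17a7, and the nearest to Tead3 was 36.3 kb away and assigned to Fance. Tead2 is known for broad expression in the early embryo and Tead3 for expression in the placenta.

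Yap1 and Wwtr1, the coactivator genes, showed the same layout. Each had 1 assigned region, over its promoter. The Yap1 region at chr9:8003159-8005412 measured 2254 bp, and that of Wwtr1 at chr3:57378652-57380994 measured 2343 bp. They were the widest of the 19, at the 94.3 and 95.4 percentiles among regions within 1 kb. The Yap1 region held 5 annotated starts and its midpoint fell in coding sequence, while that of Wwtr1 held 2 starts and was centred 9 bp from the TSS. GC content was 59.7 and 59.9%, and CpG frequency 8.25 and 5.98 per 100 bp.

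Regions near both genes had gone to their neighbours. A region of 844 bp in an intron of Wwtr1, chr3:57276136-57276979, was assigned to Tm4sf4 and lay 103275 bp from the Wwtr1 start. Past the 3′ end of Yap1, 2 intergenic regions of 760 and 995 bp (chr9:7902174-7902933 and chr9:7914089-7915083) were assigned to Birc3. Each region in the list has 1 gene, so the count of 1 for Yap1 and for Wwtr1 is a count by that assignment. Which gene these regions act on was not tested.

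**Figure D2:**
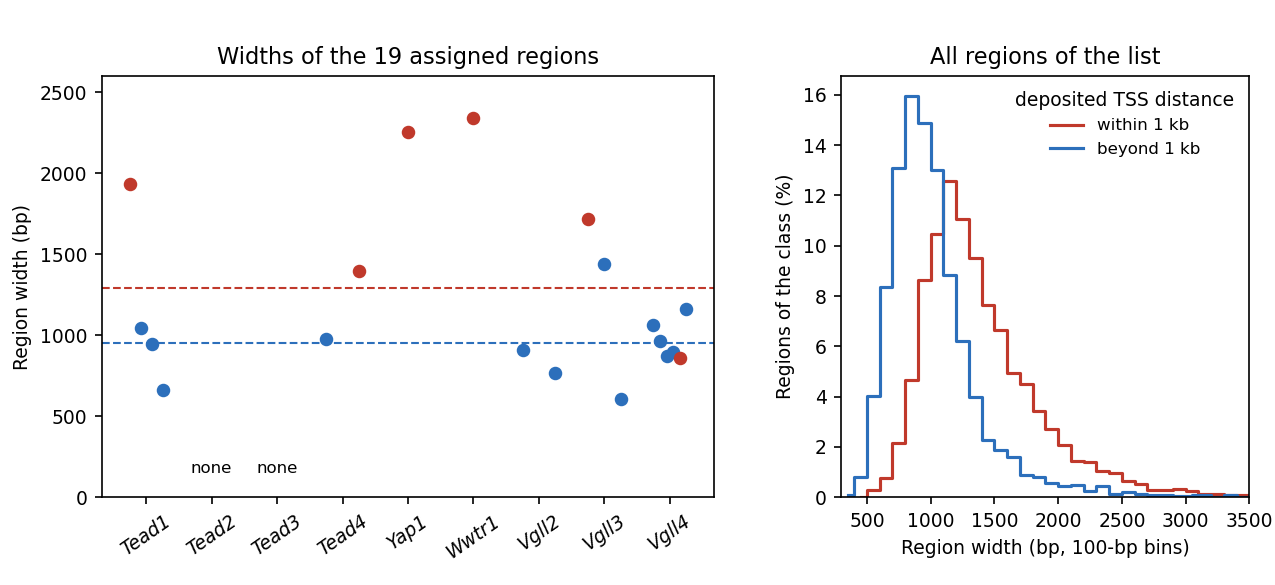
Width in bp of each of the 19 regions by gene (left; red within and blue beyond 1 kb of the deposited TSS, dashed lines at the medians of all regions of each class, 1294 and 950 bp), and the distribution of widths of all 17164 regions in bins of 100 bp as a share of each class (right). The promoter regions of Tead1, Tead4, Yap1, Wwtr1 and Vgll3 lie above the red line, and that of Vgll4, at 862 bp, lies below both lines.

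Vgll2 is expressed in pharyngeal arch and somitic muscle precursors and is the shortest gene of the group (chr10:51742308-51748277, plus strand, 5.97 kb). It was the only member with regions but none at its start. Both regions were intergenic and upstream, chr10:51630939-51631845 (907 bp) at 110.9 kb and chr10:51681135-51681901 (767 bp) at 60.8 kb, and they were the only regions in the 288.5 kb between the flanking coding genes. Their central 100 bases are shown with those of the distal Vgll3 regions, since these 4 are the intergenic regions beyond 1 kb in the group, with CG in capitals.
Vgll2, chr10:51631343-51631442, plus strand: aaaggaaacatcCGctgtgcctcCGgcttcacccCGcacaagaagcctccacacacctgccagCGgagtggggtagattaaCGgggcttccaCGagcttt
Vgll2, chr10:51681469-51681568, plus strand: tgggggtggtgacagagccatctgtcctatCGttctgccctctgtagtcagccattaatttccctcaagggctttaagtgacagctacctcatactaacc
Vgll3, chr16:65987006-65987105, plus strand: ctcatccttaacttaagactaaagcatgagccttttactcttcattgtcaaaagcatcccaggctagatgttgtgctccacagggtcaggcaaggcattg
Vgll3, chr16:66086842-66086941, plus strand: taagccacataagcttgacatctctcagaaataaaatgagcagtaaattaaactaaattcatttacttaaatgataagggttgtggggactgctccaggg
Over the full regions, GC content was 42.6 and 38.1% for Vgll2 and 41.4 and 37.3% for Vgll3, at the 18.7, 3.09, 12.8 and 1.84 percentiles of distal regions. CpG frequency was 1.43, 0.261, 0.278 and 0.164 per 100 bp. The Vgll2 region at 110.9 kb stood apart from the other 3, with 6 CG in its central window against 1 or 0.

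Vgll3, a cofactor gene linked to muscle differentiation (chr16:65815878-65863302, plus strand), had a promoter region of 1720 bp at chr16:65814762-65816481 with 58.7% GC and 5.58 CpG per 100 bp. Its 2 distal regions lay beyond the 3′ end of the gene, chr16:65986336-65987775 (1440 bp) at 171.2 kb and chr16:66086587-66087195 (609 bp) at 271 kb from the TSS. The first was at the 90.1 percentile of width among distal regions and the second at the 5.62 percentile. The second was also the poorest of the 19 in GC and in CpG. No other region lay between them.

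Vgll4, whose product competes with YAP for TEAD, is on the minus strand at chr6:114810646-114920012, and all 6 of its regions lay inside the gene. No region of another gene was found between its coding neighbours. The region at its assigned TSS, chr6:114871380-114872241, was unlike the other 5 promoter regions of the group. It was 862 bp wide, with 47.4% GC and 1.86 CpG per 100 bp, at the 5.93, 3.37 and 2.72 percentiles of regions within 1 kb. The other 5 promoter regions ranged from 1394 to 2343 bp and from 58.7 to 64.4% GC. In contrast, the region with a deposited distance of -47176 bp, chr6:114918365-114919528, had the composition of a CpG-rich promoter, with 65.5% GC and 9.62 CpG per 100 bp (98.8 and 99.3 percentiles of distal regions) and a width of 1164 bp. The outermost group of annotated Vgll4 starts, of 3 protein-coding transcripts, runs from position 114919198 to 114920012. The region held 2 of these starts, with its midpoint 252 bp from the nearest, and ended before the outermost one. The single assigned TSS thus lists as distal a region that holds annotated coding starts. Of all regions beyond 1 kb, 4.52% held a coding start.

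A further Vgll4 region, chr6:114824617-114825681, held starts of 2 noncoding transcripts of the gene, and its midpoint was 24 bp from one of them. It measured 1065 bp with 55.7% GC and 2.72 CpG per 100 bp. The 100 bases before its outer start, which carry 8 CG, are shown to set beside the 2 CG of the inner coding start. The outermost coding start of the gene had 4 in the same stretch.
Vgll4, chr6:114825126-114825225, minus strand: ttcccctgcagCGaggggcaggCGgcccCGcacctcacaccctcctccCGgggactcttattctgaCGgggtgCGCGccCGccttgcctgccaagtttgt
The 3 remaining regions, chr6:114832918-114833879 and chr6:114838638-114839508 in intron 3 and chr6:114851166-114852062 in intron 2, measured 962, 871 and 897 bp. The gaps along this stretch from the noncoding start were 7236, 4758 and 11657 bp. Over the list the median gap between neighbouring regions was 72.8 kb, and 9.43% of gaps were at most 12 kb.

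Annotated starts of each gene were grouped when at most 1000 bp apart. Vgll4 had 4 such groups, of which 3 had a start inside a region, and both of its groups with coding transcripts did. Of the 5230 protein-coding genes with at least 2 groups of coding starts, 310 (5.93%) had at least 2 covered. Tead1 also had 4 groups, all with coding transcripts, but only the outermost was covered. Tead4 had 1 of 2 groups covered, Yap1 had 1 of 3, and the single groups of Wwtr1 and Vgll3 were covered.

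**Figure D3:**
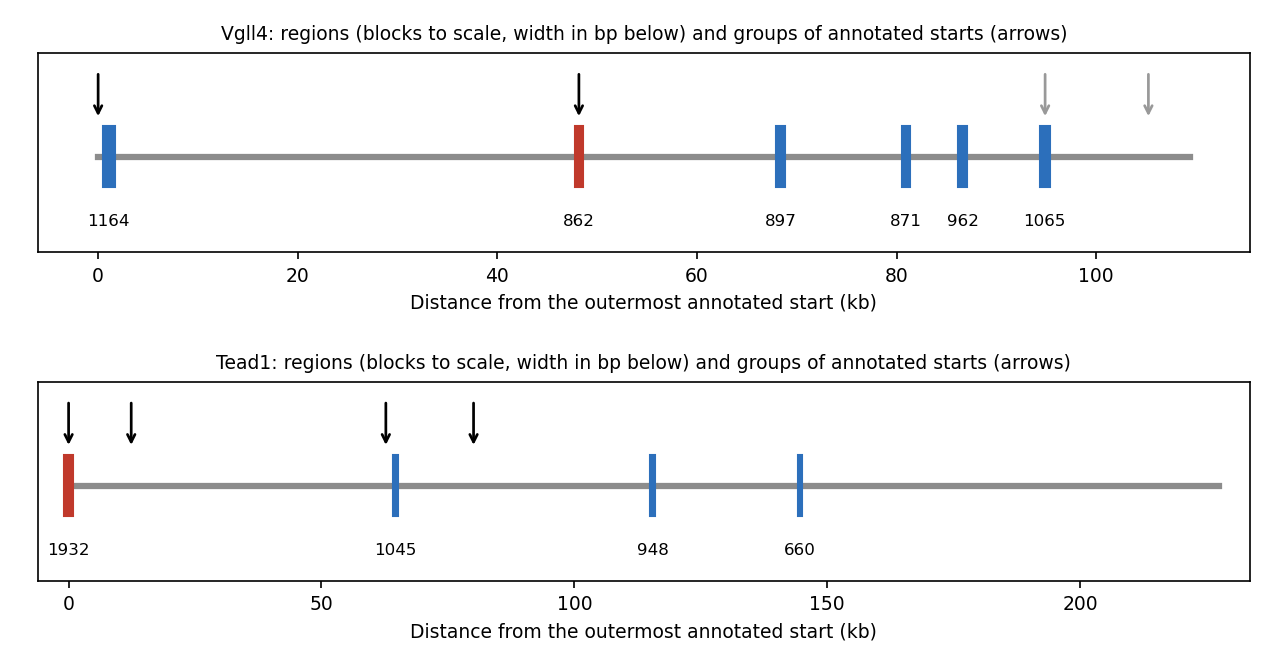
Regions of Vgll4 (top) and Tead1 (bottom) as blocks to scale along the gene (grey line; x axis, kb from the outermost annotated start in the direction of transcription), with the width in bp under each block and arrows at the groups of annotated starts (black with and grey without coding transcripts). Red blocks lie within 1 kb of the deposited TSS and blue ones beyond. In Vgll4 both groups at black arrows and 1 at a grey arrow have a start inside a region, though the outermost start itself lies just outside, and in Tead1 only the outermost group does.

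CpG content at the start went with the presence of a region over the genome. When protein-coding genes of the annotation were ranked by the highest CpG frequency within 500 bp of their starts and split into 10 bins of equal size, the share with a region within 1 kb of a start rose from 0.99% in bin 1 to 77.1% in bin 10, and was 44.7% over all 22219 genes. All 9 members were in bins 6 to 10. Tead1 (13.6 CpG per 100 bp), Yap1 (11.6) and Vgll4 (11) were in bin 10, Tead4 (7.99), Wwtr1 (7.59) and Vgll3 (7.79) were in bin 8, and all 6 had a region. Tead3, at 9.59, was in bin 9, in which 73.7% of genes had a region. Vgll2, at 6.79, was in bin 7 (70.8%), and Tead2, at 5, was in bin 6 (66.4%). These 3 starts without a region were therefore in bins where most genes had one. Over the bins that held members the share was 66.4 to 77.1%, and the count of 6 of 9 members was near it.

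**Figure D4:**
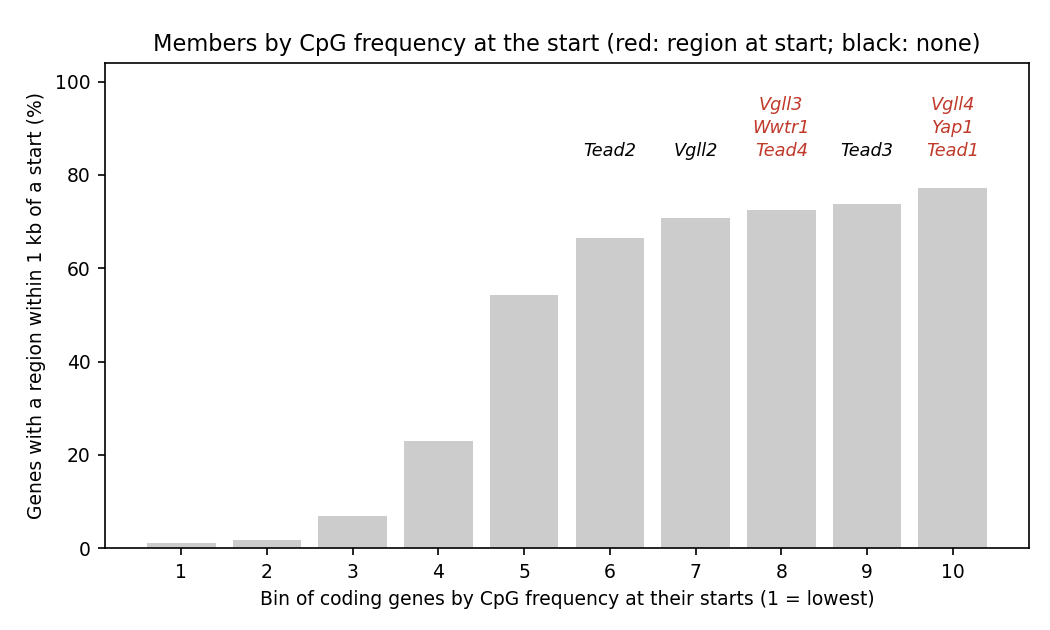
Share of protein-coding genes with a region within 1 kb of a start (y axis, %) in 10 bins of genes by CpG frequency at their starts (x axis, 1 lowest). Member names stand over their bin, in red with and in black without a region at the start. The share rises from 0.99% to 77.1%, and the members fall in bins 6 to 10.

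By class, the 6 promoter regions of the group had a median width of 1826 bp against 1294 bp for all 9083 regions within 1 kb, and the 13 others had a median of 948 bp against 950 bp for all 8081 regions beyond. Median GC was 59.8 and 49.2% in the members and 58.1 and 47.5% in all regions, and median CpG frequency was 6.54 and 1.43 against 5.93 and 1.35 per 100 bp. Of the 13 regions beyond 1 kb, 8 had their midpoint in an intron, 4 were intergenic and 1, at the outer coding starts of Vgll4, was exonic. Although 4 of the 13 have a negative deposited distance, only the Vgll2 pair lay upstream of the outermost start of its gene. No share over all regions is given for these places and sides, so the counts describe the 13 only. The nearest coding start in the annotation belonged to the assigned gene for all 19 regions, and for 77.1% of regions in the list. Only coding starts were searched, so regions assigned to noncoding genes could not match. The members are all coding genes, so these values are not like for like. Repeated sequence was rare in them, since at most 4.03% of the 31-base words of a member region (in Tead1) occurred elsewhere in the genome.

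The TEAD core CATTCC was searched on both strands in the central 300 bp of every region. It occurred in 7 of the 19 member regions (36.8%, Wilson 95% interval 19.1 to 59%, for counting error only), against 15.4% of all regions. Within 1 kb of the TSS it was found in 3 of 6 member regions and 9.26% of all, and beyond 1 kb in 4 of 13 (30.8%) and 22.2%. The longer ACATTCC, which contains the core, was found in 1 of 19 (Vgll4) and in 4.91% of all regions. A match is a description of sequence and not of TEAD binding, which was not measured in these data.

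The matches were at Tead1 (2 in the promoter region), Tead4 (3 in the promoter region and 1 in intron 1), Wwtr1 (promoter, 1), Vgll3 (the region at 271 kb, 1) and Vgll4 (intron 3 and the region at the outer coding starts, 1 each). None was in the central windows of Yap1 and Vgll2. The matches outside exons are shown with 20 bases on each side and the core in capitals, to display what surrounds it.
Tead4, chr6:128235933-128235978, minus strand: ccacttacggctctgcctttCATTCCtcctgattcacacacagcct
Wwtr1, chr3:57379943-57379988, plus strand: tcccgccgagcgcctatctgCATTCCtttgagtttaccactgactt
Vgll3, chr16:66086960-66087005, minus strand: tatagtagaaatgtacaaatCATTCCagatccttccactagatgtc
Vgll4, chr6:114839171-114839216, minus strand: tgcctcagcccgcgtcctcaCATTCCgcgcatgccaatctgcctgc
The Vgll4 match is preceded by A, which makes it the match to ACATTCC, and the cores of the other 3 are preceded by T or G.

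In Tead1, Tead3 and Tead4, but not in Tead2, cores lay side by side on the coding strand in the transcribed 5′ part of the gene. The shortest stretches that hold these cores are shown, in capitals, for Tead1 and Tead4, whose stretches are inside an accessible region, and for Tead3, which has no region.
Tead1, chr7:119822857-119822874, plus strand: CATTCCtgtcctCATTCC
Tead4, chr6:128250475-128250501, minus strand: CATTCCagcgccCATTCCgtgCATTCC
Tead3, chr17:28487654-28487668, minus strand: CATTCCgtaCATTCC
In Tead1 the stretch starts 25 bases after the outermost start and holds 2 cores with 6 bases between them. In Tead4 it starts 340 bases after and holds 3 cores, with 6 and 3 bases between them, and in Tead3 it starts 82 bases after and holds 2 cores with 3 bases between them. All 3 stretches lie in UTR. This arrangement was looked for after the windows above had been seen. Among the 9083 regions within 1 kb of a TSS, 9 (0.0991%) had at least 2 cores on the same strand within 30 bases of their central 300 bp, and those of Tead1 and Tead4 were among them. At least 3 were found in 2, assigned to Tead4 and Serping1. Counting all cores within 500 bp of the outermost start, irrespective of accessibility, Tead3 had 4, Tead1 and Tead4 had 3, Wwtr1 had 2, Yap1 and Vgll4 had 1, and Tead2, Vgll2 and Vgll3 had 0. At least 3 occurred at 1.76% of the 22219 protein-coding genes. The 4 TEAD genes are paralogs, so their sequences are not independent of each other.

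Other motifs were less frequent in the group than CATTCC. AP-1, GATA and T-box, in 2 of 19 regions each, were more frequent than ACATTCC, in 1 of 19. AP-1 (TGANTCA), whose factors often bind beside TEAD, was found in 2 of 19 regions, in intron 1 of Tead4 and intron 2 of Tead1, against 5.55% of all regions. The GATA motif AGATAA was found in the same Tead4 region and in the farthest Vgll3 region, against 8.53%. The T-box motif GGTGTGA occurred in the AP-1-bearing Tead1 region and in the Vgll4 region at the noncoding starts (3.21% of all). The Isl1 motif CTAATG occurred in 1 region, that in intron 2 of Tead1 at 115.5 kb from the start, and in 6.85% of all. All these matches were in the 13 member regions beyond 1 kb. There AP-1, GATA and T-box were each in 15.4% and Isl1 in 7.69%, beside 8.58, 14.5, 4.07 and 11.2% of all regions beyond 1 kb. The intron 1 region of Tead4 thus held a TEAD, an AP-1 and a GATA match within the same 300 bp. The share of all regions that hold these matches together is not given here.

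The kinases and adaptors that act on YAP and TAZ had a simpler layout. Of 7 core Hippo genes, 6 had exactly 1 region each, within 1 kb of the TSS, and the widest were at the adaptor Mob1b (1893 bp), the kinase Lats1 (1823 bp), Mob1a (1343 bp) and the scaffold Sav1 (1260 bp). Lats2, the paralog of Lats1, had none. Of 20 upstream genes 17 had a region and 15 had one at the start. Wwc1, which codes for the scaffold KIBRA, had 5, Amot, which codes for the YAP-binding angiomotin, had 3, and the protocadherin gene Fat4 and the KIBRA paralog Wwc2 had 2 each. Ajuba, Taok1 and Dlg5 had none. Together 23 of 27 genes had a region, against 49.3% of protein-coding genes, the median was 1 region per gene and 2 of 27 had 3 or more, whereas the median of the 9 TEAD, YAP, TAZ and VGLL genes was 2 and 3 of 9 had 3 or more.

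Of 22 genes known as targets of YAP and TEAD, 20 had a region and 15 had one within 1 kb, beside 49.3 and 40.6% of all protein-coding genes. They had 50 regions in all and a median of 1 per gene. The genes with the most regions were Rbms3 (10), which codes for an RNA-binding protein, Igfbp3 (5), which binds insulin-like growth factors, Nt5e (5), which codes for CD73, and Cyr61 (4), a secreted matricellular protein now named Ccn1. Crim1 and Asap1 also had 4 each, and Cyr61 was put first by its widest region. Lats2 and Foxf2 had none. Both lists hold 3 of the genes, among them Lats2. The core CATTCC was found in the central window of 14 of these 50 regions (28%) and of 5 of the 32 Hippo regions (15.6%), beside 15.4% of all regions.

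**Figure D5:**
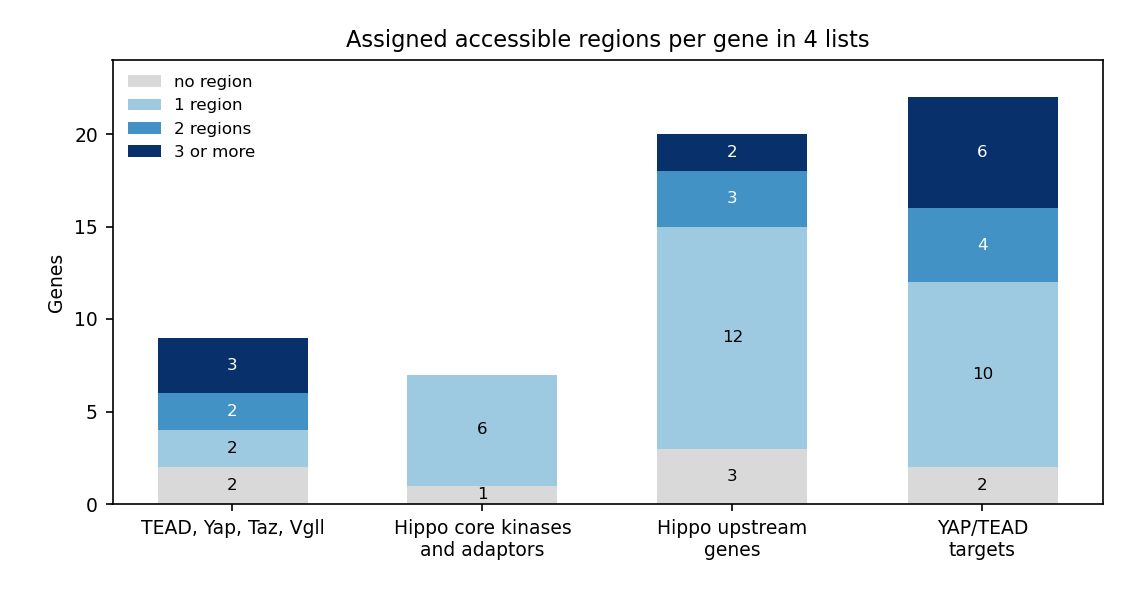
Number of genes (y axis) with no, 1, 2 or at least 3 assigned regions in the TEAD, YAP, TAZ and VGLL genes, the Hippo core genes, the upstream Hippo genes and the YAP/TEAD targets. None of the core genes had more than 1 region, while 3 of 9 members and 6 of 22 targets had at least 3, as did 4.96% of all protein-coding genes.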

How the data were processed

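ATAC-Seq was performed by the authors on 3 libraries per genotype. Per the labels and methods, reads were mapped to mm9 with bowtie2 and filtered with samtools, duplicates were removed with Picard 1.136, peaks were called per library with MACS14 (no model, fixed shift size), and bedtools 2.15 kept peaks shared by the replicates by at least 1 bp. The sources give no offset for Tn5, the shift lengthens each tag, and width grows with depth, so an edge does not mark an insertion. For the ChIP-Seq peaks the methods name annotatePeaks.pl, which takes the closest TSS. The tool that assigned genes to these ATAC-Seq regions is not given in the sources used here. The deposited values are region starts and ends and the TSS distance, in bp.

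Distinct coordinates were counted once (17432 rows, 17164 regions). Positions were taken as 1-based. Distance classes used the deposited distance. Sequence, starts and introns came from NCBIM37 with GENCODE, the same build, and 0 regions ended beyond a chromosome. Gene types and names came from the RefSeq gene table of GRCm38.p6, without its coordinates. Scripts used Python 3.11.15, numpy 2.4.6, pandas 2.3.3 and pysam 0.24.0 and were tested on simulated regions. No column was left unmapped (0).

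Named genes were all 9 members, the 4 genes with most regions in each Hippo or target list with all genes that had none, and neighbours that receive a region of a member's interval. Serping1 was named after its value was seen. The members and lists were chosen with earlier results of these data known. Alternatives were region width, gene assignment, joining, distance windows, motif and the member with the most regions. The mutant libraries were not analysed here, and the stretch before the Tead1 start is not reported here.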

Additional observations from a re-analysis of the deposited data

How the results depend on the processing

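Of 28 recomputed values, 25 stayed within the main value's interval or, for counts, within 1.5 times it. These intervals are wide, and some of the values could not move. Counting all rows as deposited, or taking the nearest coding start, returned the same 19 regions. Their widths and CATTCC share therefore had to stay the same. A minimum width set at the list's median, in place of a stricter peak threshold, left 7 of the 19 regions, with a median width of 1720 instead of 977 bp, since the filter acts on width itself. It kept 6 genes with a region and 5 with one at the start, moved the median absolute TSS distance of the member regions from 32697 bp to 269 bp, the lower edge of its interval, and gave a CATTCC share of 57.1%. Over whole regions that share was 57.9%. Longer stretches hold more matches, and no share over all regions is given for either setting. Neither value can therefore be set beside the 15.4% for the central 300 bp of all regions. With ACATTCC in place of CATTCC the share of member regions with a match was 5.26% instead of 36.8%, and that of all regions 4.91% instead of 15.4%. The longer word is a subset of the shorter, so both shares must fall, but with it the members lay near all regions. Assigning regions to the nearest coding start gave the same 7 genes and 19 regions. Without Vgll4 there were 13 regions, and 38.5% held CATTCC. No paired analysis was possible because the control list has no value per library, and for the same reason no library could be left out. Depth, unknown here, limits which sites could be called.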

Other observations

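The 9 promoter regions with at least 2 cores CATTCC on the same strand within 30 bases of their central window were assigned to Erc2, Ext1, Hint2, Nbas, Serping1, Stat2, Tead1, Tead4 and Wwc2, named here after their values were seen. Ext1 codes for a heparan sulfate polymerase and Wwc2 is on the list of upstream Hippo genes. Around the outermost starts of the 22219 protein-coding genes, within 500 bp on each side and whether accessible or not, 129 genes (0.581%) had such a pair, and Tead1, Tead3 and Tead4 were among them. At least 3 such cores were found at 1 gene, Tead4. The arrangement was looked for after the Tead1 and Tead4 windows had been seen, so their place among these genes is no independent result. Tead3 is a paralog of both, so its sequence is not independent of theirs.

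Among the YAP/TEAD targets, CATTCC was in the central window of 12 of 34 regions beyond 1 kb (35.3%) and 2 of 16 within 1 kb (12.5%), beside 22.2 and 9.26% of all regions of these classes. The Isl1 motif CTAATG was in 6 of the 34 target regions beyond 1 kb (17.6%) and in 11.2% of all such regions. The Wilson intervals beyond 1 kb, 21.5 to 52.1% for CATTCC and 8.35 to 33.5% for CTAATG, both include the shares of all regions. Of the other motifs in this class, ACATTCC was also above all regions (14.7 against 8.18%) and GATA was near them (14.7 against 14.5%). AP-1 (5.88 against 8.58%) and T-box (2.94 against 4.07%) were below. Of the 10 regions of Rbms3, 3 held CATTCC, and the farthest lay 444.9 kb from the TSS.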
